A study of Mus musculus with 12 samples.

Results

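Hypomethylated regions (HMRs) are stretches of the genome where the CpG dinucleotides are mostly unmethylated while the DNA around them is methylated. The HMRs described here lie over 3′ untranslated regions (3′ UTRs), the part of a messenger RNA that follows the stop codon. They were found by merging the HMRs of 4 pooled β-cell methylomes, keeping autosomal regions shorter than 5 kb with at least 50 reads in each pool, and taking those whose midpoint lay in the 3′ UTR of the Ensembl-canonical transcript of a protein-coding gene and more than 2 kb from every protein-coding transcription start. This gave 1125 HMRs (1.37%) of the 81983 that met the length and read limits, out of 84472 merged autosomal HMRs. Of the other 3′ UTR HMRs, 132 lay within 2 kb of a start, 13 were 5 kb or longer and 4 had too few reads.

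Myt1cCre; Ngn3nCre; Rosa26eYFP; InsApple (MNYI) mice carry 2 Cre fragments under Myt1 and Neurog3 control, so that eYFP marks the descendants of progenitors that expressed both genes, while Apple marks insulin-producing cells. All groups shared this genotype. Islet cells were sorted at postnatal day 2 (P2) or at 2 months (P60) into eYFP+ cells, titled M+N+ (eGFP+), and eYFP- cells, titled M-N+ (eGFP-), and their DNA was read by tagmentation-based whole genome bisulfite sequencing. Each subtype had 2 libraries at P2 and 4 at P60, and each library combined sorted cells of several FACS batches and mice. By title, odd replicate numbers came from female and even ones from male mice, but the P2 eYFP- titles go against the X chromosome. FACS batches were combined for each stage and sex. Whether P60 libraries of the same subtype and sex share DNA is not stated. The labels give the cell type as all islet cells, whereas the titles say sorted β cells. The promoters of the β-cell genes Pdx1, Nkx6-1 and Mafa were between 0.454% and 1.29% methylated in the 4 pools, and that of Ins1 fell from 28.3% and 35.1% at P2 to 7.87% and 5.74% at P60 in eYFP- and eYFP+ cells. Of 22 promoters of markers of other cell types, 6 were over 65% methylated in every pool, among them Ppy of PP cells, Ptprc of leukocytes and Pecam1 of endothelium. Another 9 were under 20% in every pool, which included the delta-cell gene Sst (14.7% to 19.2%) and the mesenchymal gene Pdgfra (3.13% to 10.5%) beside Ptf1a, Irx2, Hhex, Sox9 and Kdr. The other 7 lay between, such as Gcg of alpha cells (54.6% to 62.3%), Col1a1 and Pdgfrb of mesenchyme (30.3% to 43.4%) and Cd68 of macrophages (47.1% to 62.9%). The part of other cell types in these pools was not tested.

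DNA methylation is laid down by DNMT3A and DNMT3B and copied at cell division by DNMT1. It covers most CpGs of gene bodies and their 3′ UTRs, whereas promoters with many CpGs and active enhancers stay unmethylated. CpG density falls along a gene, and an unmethylated stretch in a 3′ UTR can mark an enhancer, the start of another transcript, or a binding site of CTCF, the zinc finger protein that organises chromatin loops and binds poorly to some of its sites when they are methylated.

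The sequence of a few 3′ UTR HMRs is given first, because their small number of CpGs sets what could be measured. Each is a window of 30 bases of the GRCm39 reference genome on the strand of the gene, with every CpG in capitals, around the CpG that differed most in the named comparison. In Zbtb47 and Mark1 this was the CpG that differed most between subtypes at P2, in Fam53b between stages with a rise, in Macir and Tomm34 between stages with a fall, and in E2f7 and Ap1ar between subtypes at P60.
Zbtb47 (chr9:121600294-121600323, plus strand): gtgacaCGgctgttCGctgtgtttggtaga
Mark1 (chr1:184629502-184629531, minus strand): attagtgaCGtatgCGaCGtaaagccacta
Fam53b (chr7:132313914-132313943, minus strand): gctCGttagcaccaCGcaccatCGcctgcc
Macir (chr1:97557896-97557925, minus strand): ttcctgttgttctcCGaaaacaaagaccca
Tomm34 (chr2:163895855-163895884, minus strand): agtgcttgctCGtcCGcagccacagCGgcc
E2f7 (chr10:110620998-110621027, plus strand): agggtaagtgtCGgCGatatgcctctccac
Ap1ar (chr3:127602130-127602159, minus strand): cagaccagcagatcCGatagggtgaaacCG
These windows hold between 1 and 3 CpGs. At the central CpG of the Fam53b window 6.45% of 31 reads were methylated in P2 eYFP- cells and 80.7% of 62 reads in P60 eYFP- cells. At that of the Macir window the level went the other way, from 68.6% of 35 reads to 12.96% of 54 reads.

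A second set shows the letters CAGGGGGC, part of the CTCF recognition sequence, which were found within the central 200 bp of 50 of the 1125 HMRs. The capitals mark these letters, on the strand where they were read. The HMRs of the first 6 were found in each of the 12 libraries, and the last is a region that gained methylation.
Kcnn4 (chr7:24084502-24084531, minus strand): caggtgtccacCAGGGGGCagcacctcccg
Nkain3 (chr4:20122512-20122541, plus strand): ggtctggtcggCAGGGGGCgcagtcctgct
Adamtsl5 (chr10:80176074-80176103, plus strand): tgtccagccacCAGGGGGCgcaaggaatcc
Frmd8 (chr19:5900381-5900410, minus strand): gctgtgaccagCAGGGGGCagctgagccct
Anxa11 (chr14:25886506-25886535, minus strand): gccaatgccagCAGGGGGCacaggtgagcc
Itsn1 (chr16:91714871-91714900, minus strand): ctgggatgcagCAGGGGGCgccagcacctt
Cbx8 (chr11:118928166-118928195, minus strand): agactccgccgCAGGGGGCgggggagcgcg

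The 1125 HMRs lay in 1052 host genes, which are 5.31% of the 19796 autosomal genes with a canonical 3′ UTR. They covered 4.08% of the 302485 CpGs that lie in 3′ UTRs more than 2 kb from a start. The 7 genes with 3 such HMRs included Dpy19l3, Vapb, Macir, She, Trim56 and Extl1, and 66 genes had at least 2. The HMRs were between 49 and 4598 bp long, with a median of 405 bp, and held between 4 and 230 CpGs, with a median of 8. The 3′ UTRs that held them had a median length of 2853 bp. Their midpoints were spread evenly over the 3′ UTR, with 365, 387 and 373 in its proximal, middle and distal stretch of equal length. In 842 HMRs (74.8%) the whole region was inside the 3′ UTR, 173 reached into the coding sequence and 148 ran past the end of the transcript. A start of a long noncoding RNA was within 500 bp of 34 (3.02%), against 2.68% of intronic and 12.5% of intergenic HMRs.

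In base composition the 3′ UTR HMRs were closer to intronic HMRs than to those near starts. The median ratio of observed to expected CpGs was 0.391, against 0.369 in 26134 intronic and 0.384 in 35878 intergenic HMRs. It was 0.556 in 1434 HMRs of coding exons and 0.609 in 17389 HMRs within 2 kb of a start. A CpG-island-like definition asked for at least 200 bp, at least 50% G and C, and a ratio of at least 0.6. It was met by 50 (4.44%), against 1.60% of intronic, 3.15% of intergenic, 22.8% of coding exon and 45.3% of start-proximal HMRs. The 3′ UTR HMRs with most CpGs are named here after their values were seen. That in Nfix (chr8:85430497-85434917) held 230 CpGs, and those of Pax2, Tbr1 and Prdm12 held 190, 165 and 136. That of Prdm12, a zinc finger factor of sensory neurons, was among the least methylated, at 1.66%, 1.61%, 1.91% and 1.95% in P2 eYFP-, P2 eYFP+, P60 eYFP- and P60 eYFP+ cells. The order of pools is the same in all lists of 4 levels that follow.

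The level of a region was computed from the summed reads over its CpGs, as the percentage that were methylated. The deposited counts are pools of all libraries of a subtype and stage, with a mean of 25.2 and 25.3 reads per CpG at P2 and 45.7 and 45.4 at P60, and the median 3′ UTR HMR had 216, 219, 459 and 445 reads. The 95% Wilson intervals and Fisher's exact tests given below therefore cover counting error within pools and say nothing of the spread between mice. Reads copied by PCR are not independent, so the intervals are minimal. A region methylated in a share of the cells cannot be told apart from one partly methylated in each cell. All P2 libraries share a name prefix that no P60 library has, and the P60 pools are deeper, so stage, library set and depth cannot be told apart. Single libraries hold positions of HMRs only and give the one replicated value, whether a library had an HMR at a region.

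In every pool each of the 1125 HMRs was less methylated than the CpGs outside HMRs in the 1 kb on either side of it. Regions were chosen as HMRs of at least 1 pool, so this contrast was largely set by the choice of regions. The same holds for the contrast of 3′ UTR CpGs inside and outside HMRs. The median level was 12.7% in P2 eYFP-, 13.6% in P2 eYFP+, 17.9% in P60 eYFP- and 18.0% in P60 eYFP+ cells, while the flanks had medians of 74.4%, 75.04%, 77.6% and 76.9%. The CpGs of 3′ UTRs outside HMRs had mean levels of 79.5%, 80.1%, 79.9% and 79.3%, whereas the CpGs of 3′ UTRs inside these HMRs had 12.4%, 12.7%, 20.2% and 20.1%. Under 10% methylated were 413 in eYFP- (36.7%) and 373 in eYFP+ cells (33.2%) at P2 and 294 in each subtype (26.1%) at P60. Of all HMRs these were 45.1% and 42.9% at P2 and 36.5% and 36.1% at P60. Those over 50% numbered 0 and 1 at P2 and 74 and 71 (6.58% and 6.31%) at P60. Of all HMRs 0.0720% and 0.0951% were over 50% at P2 and 5.41% and 4.79% at P60. The promoters of the host genes were mostly unmethylated at both stages, with medians of 2.40%, 2.57%, 2.54% and 2.46%.

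**Figure D1:**
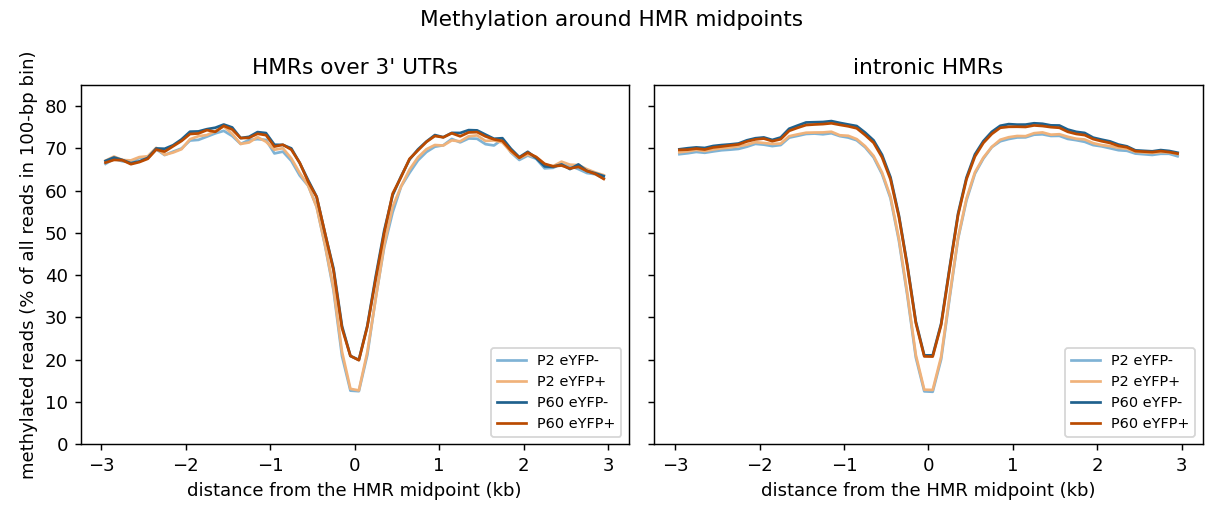
Share of methylated reads in 100-bp bins (y, percent) against the distance from the HMR midpoint (x, kb) for 3′ UTR HMRs and intronic HMRs, with a line for each of the 4 pools; 3 3′ UTR HMRs and 25 intronic HMRs of more than 3 times the mean depth were left out. In the bin just before the midpoint the 3′ UTR HMRs rose from 12.7% and 13.1% at P2 to 20.9% in both subtypes at P60, and the intronic HMRs from 12.5% and 12.9% to 21.02% and 20.8%.

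The lowest 3′ UTR HMRs had nearly no methylated read. In Cldn1, which encodes a tight junction protein, 0 of 113 reads were methylated in P2 eYFP- cells, which allows a level of up to 2.65% (3 counts of the total; the upper Wilson bound is 3.29%), and 0.617% of 162 reads in P60 eYFP- cells. Or2c1, an olfactory receptor gene whose own promoter was between 12% and 28.6% methylated, had levels of 0.505%, 0.513%, 1.01% and 0.508% and an HMR in each of the 12 libraries. Zc2hc1c, Ptar1, Ccdc77 and Chrm1 (a region of 4 CpGs) were also among the 6 lowest, with no pool above 3.85%. These 6 regions had between 4 and 7 CpGs, and no single library had an HMR at those of Cldn1, Ptar1, Ccdc77 and Chrm1.

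From P2 to P60 the 3′ UTR HMRs gained methylation far more often than they lost it. A change was called at a Benjamini-Hochberg adjusted p under 0.05 in Fisher's exact test over all 81983 HMRs, together with a difference of at least 10 percentage points. In eYFP- cells 387 rose (34.4%, against a background of 28.8% of all HMRs tested) and 40 fell (3.56%, background 2.85%). In eYFP+ cells 367 rose (32.6%, background 27.4%) and 69 fell (6.13%, background 3.69%). The shares of 3′ UTR HMRs that rose lay between the background and those of intronic HMRs, of which 38.4% rose in eYFP- and 36.2% in eYFP+ cells. The median difference was 4.91 points in eYFP- and 4.28 points in eYFP+ cells, against 3.08 and 2.56 points over all HMRs.

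**Figure D2:**
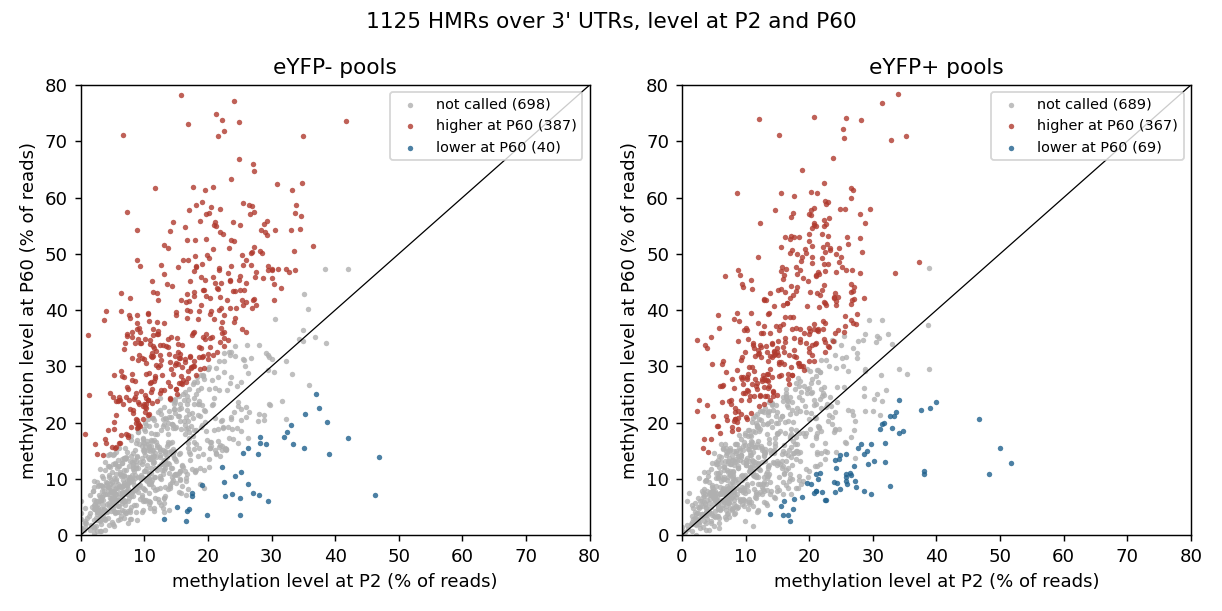
Methylation level of each of the 1125 3′ UTR HMRs at P60 (y) against P2 (x), in percent of reads, for the eYFP- and the eYFP+ pools; red points were called higher at P60 (387 and 367), blue points lower (40 and 69) and grey points were not called, and the line marks equal levels. Most called points lie above the line, and the highest reach 78.2% and 78.3% at P60.

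The choice of regions may bear on this direction, which was not tested. Each region had to be an HMR in at least 1 pool. There were 342 (30.4%) that were HMRs in P2 pools only and 105 (9.33%) in P60 pools only. More regions thus entered through P2 pools alone. The same shares over all HMRs are not given here, so these counts cannot be read as a trait of 3′ UTR HMRs. Among the 575 that were HMRs in all 4 pools, a set chosen after the data were seen, 73 rose and 8 fell in eYFP- cells (12.7% and 1.39%, background 11.6% and 1.08%) and 61 rose and 17 fell in eYFP+ cells (10.6% and 2.96%, background 10.2% and 1.59%). Which regions were HMRs in all 4 pools depends on the stage change itself, so this set does not separate the choice of regions from the change. Of the 22 marker promoters of other cell types, Krt19 of duct cells (22.8%, 21.2%, 56.7% and 52.5%) and Cd68 were more methylated at P60 by over 10 points in both subtypes, Prss2 of acinar cells less (54.8%, 65%, 42.5% and 39.5%), and 19 were neither. The Prss2 promoter had only 31, 20, 40 and 38 reads, so its levels are uncertain. The part of the cell composition in the stage differences was not tested.

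Both subtypes made the same call in most cases. There were 318 HMRs (28.3%) that rose in both, against 23.5% of all HMRs and 32.0% of intronic ones, and 25 (2.22%) that fell in both, against 1.71% and 2.35%. Dcbld1 alone was called in opposite directions, and 606 were called in neither. The median level of the 318 went from 16.8% and 16.3% at P2 to 39.8% and 37.7% at P60, and the flanks of the same regions from 74.3% and 74.4% to 80.6% and 79.7%. The promoters of their host genes had medians of 1.83% and 2.16% at P2 and 1.95% and 1.88% at P60, and 12 of the 318 promoters moved by more than 10 points. The 25 that fell went from medians of 27.1% and 28.6% to 10.5% and 10.9%, and none of their promoters moved by more than 10 points.

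The 8 largest rises among regions with at least 100 reads in each pool were in Zbtb47, Pard3, Pomgnt2, Fam53b, Tbc1d16, Aunip, Gprc5b and Lmln. The region of Fam53b (chr7:132313721-132314138) had 14 CpGs near the distal end of the 3′ UTR, and its levels were 21.3% (95% interval 17.6 to 25.6), 15.3% (11.3 to 20.3), 74.9% (71.9 to 77.6) and 71.05% (67.7 to 74.2). All 14 CpGs rose in both subtypes, all 4 P2 libraries and none of the 8 P60 libraries had an HMR there, and the adjusted p by Fisher's exact test was 1.29e-71 in eYFP- and 3.67e-53 in eYFP+ cells. At P60 it was nearly as methylated as its flanks, which stood at 87.2% and 87.4%.

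In Zbtb47, a zinc finger gene, the region chr9:121600100-121600308 was at 6.63% (3.83 to 11.2), 25.2% (19.8 to 31.7), 71.1% (67.04 to 74.8) and 72.2% (67.6 to 76.5). Each of its 7 CpGs rose in both subtypes, and only the 2 P2 eYFP- libraries had an HMR there. Tbc1d16, which encodes a GTPase-activating protein of Rab proteins, had the same order of levels, at 15.7%, 33.9%, 78.2% and 78.3%. Pard3, a scaffold of cell polarity, went from 22.5% and 12.1% to 71.8% and 73.9%, and Pomgnt2, a glycosyltransferase that acts on dystroglycan, from 16.8% and 20.7% to 73.0% and 74.4%. The levels of Aunip, which encodes a partner of Aurora kinase A, were 11.7%, 8.64%, 61.8% and 60.8%. Gprc5b, an orphan G protein-coupled receptor, had 22.2%, 25.8%, 73.8% and 74.2%, and Lmln, a metallopeptidase, 24.0%, 31.4%, 77.1% and 76.8%. The intervals of the P2 and P60 pools did not overlap in these 8 regions, which was largely set by choosing the largest rises. Their host promoters were at most 8.17% methylated in every pool.

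The 8 largest falls were smaller in size. The region chr1:97557910-97558070 of Macir, an immune regulator gene, went from 46.2% (38.6 to 54.0) and 48.2% (40.1 to 56.4) at P2 to 7.07% (4.26 to 11.5) and 10.9% (7.56 to 15.5) at P60, and its 5 CpGs all fell. It lies in a 3′ UTR of 39397 bp, the longest among the host genes, which held a pair of further HMRs that were not called in either subtype. No single library had an HMR at this region, so the fall rests on the pools alone. The region of Tomm34, a cochaperone of mitochondrial import, went from 46.8% and 51.7% to 13.9% and 12.9%, with all 8 CpGs lower, and 6 of the 8 P60 libraries but none of the P2 libraries had an HMR there. Cep162, a gene of the centrioles and cilia, had levels of 42.0%, 34.1%, 17.4% and 18.2% and an HMR in 5 of the 8 P60 libraries and in no P2 library. Sptssb, a subunit of the enzyme that starts sphingolipid synthesis, had levels of 28%, 29.7%, 7.19% and 7.37%. Lysmd4, Hmgxb4, Pacc1, a proton-activated chloride channel, and She, an adaptor with an SH2 domain, were the other 4, and all of them were between 26.4% and 39.0% at P2 and between 6.14% and 16.2% at P60. The 8 falls were chosen among regions called in both subtypes, so a low adjusted p was set by the choice. By Fisher's exact test it was at most 0.00193 in eYFP- and 0.000966 in eYFP+ cells.

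**Figure D3:**
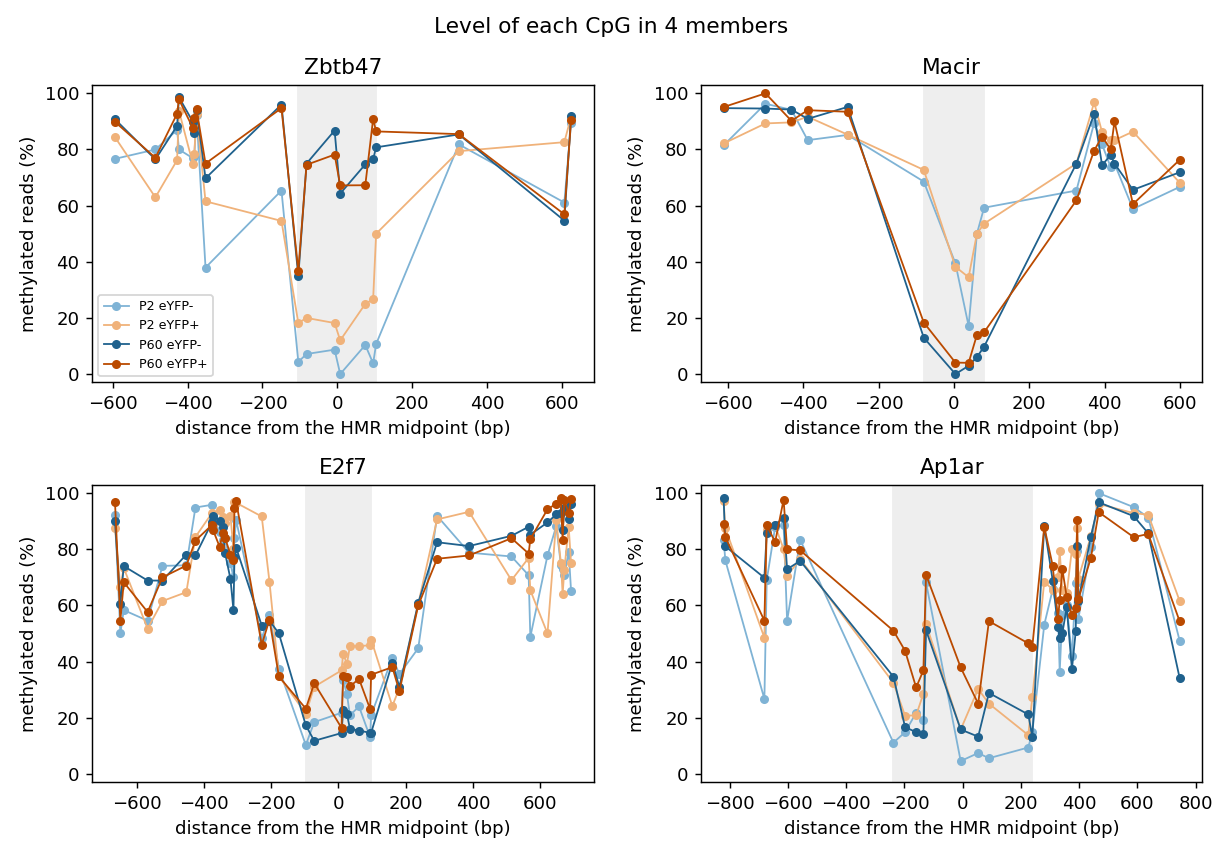
Level of single CpGs (y, percent of reads) against the distance from the HMR midpoint (x, bp) in the 3′ UTRs of Zbtb47, Macir, E2f7 and Ap1ar, with a line for each of the 4 pools and the HMR shaded. In Zbtb47 both P60 lines lie above both P2 lines at all 7 CpGs of the HMR, in Macir below them at all 5, and in E2f7 and Ap1ar the P60 eYFP+ line lies above the P60 eYFP- line at all 9 and 10 CpGs.

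Regions of the same 3′ UTR could differ in their calls, and the examples that follow were chosen after their values were seen. Trim56, a ubiquitin ligase gene, had 3 HMRs, of which that at chr5:137138915 rose from 19.7% and 17.3% to 35.8% and 36.6% while that at chr5:137136589 went from 24.7% and 25.9% to 16.4% and 9.1% and was called lower in eYFP+ cells. In Slc2a1, the glucose transporter GLUT1, a region of 26 CpGs stood at 5.49%, 5.57%, 6.22% and 5.81% with an HMR in all 12 libraries, and a region of 8 CpGs upstream of it, called higher at P60 in eYFP- cells, had 19.5%, 25.3%, 34.8% and 30%. The second HMR of Tbc1d16, with 21 CpGs, was at 5.01%, 5.33%, 12.6% and 12.7%, and that of Aunip, with 9 CpGs, at 3.67%, 3.11%, 3.15% and 3.40%, and both were found in all 12 libraries. In Nfix the small region of 8 CpGs beside the stop codon was at 17.1%, 17.9%, 31.8% and 47.6%, and the large one of 230 CpGs at 8.37%, 11.1%, 24.2% and 26.8%.

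Of 562 genes on 9 lists chosen for β cells, 51 3′ UTR HMRs were found in hosts or second hosts. In each subtype 23 of them rose (45.1%, against 34.4% and 32.6% of all 3′ UTR HMRs and 28.8% and 27.4% of all HMRs), 21 in both, none fell and none was called between subtypes. These lists were compiled with earlier results of these data known, and the counts, which rest on few regions a list, are descriptions to be read against those shares. Among genes of DNA methylation and chromatin 4 of 8 regions rose in each subtype, none fell and the median difference was 14.3 and 11.3 points. The Polycomb gene Cbx8 had the largest rise, at a region of 37 CpGs (chr11:118927851-118928383) that went from 17.6% (15.1 to 20.4) and 15.6% (13.4 to 18.1) to 61.9% (59.8 to 64.0) and 60.7% (58.8 to 62.7), with an HMR in all P2 libraries and no P60 library and an adjusted p by Fisher's exact test of 1.49e-101 and 1.57e-122. The histone methyltransferase gene Setd1b went from 7.29% and 10.3% to 26.4% and 27.7%. The demethylase gene Kdm5b also rose in both subtypes, while Kdm5a, Chd7 and Hdac7 were not called.

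Of 6 regions at β-cell transcription factors 3 rose in both subtypes. Zbtb20, a zinc finger repressor, had a region of 6 CpGs at 9.38% (5.76 to 14.9), 6.76% (4.07 to 11.03), 47.9% (41.8 to 54.0) and 46.0% (40.6 to 51.6). That of Foxo1, which acts downstream of insulin signalling, was at 7.78%, 20.4%, 42.2% and 48.3%.

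Among calcium and potassium channel genes 5 of 12 regions rose in eYFP- and 4 in eYFP+ cells (41.7% and 33.3%), near the shares of all 3′ UTR HMRs. These included Kcnj6, a G protein-gated channel, at 22.2%, 12.5%, 37.8% and 36.0%, and Hcn3, a pacemaker channel gene that shares its region with the pyruvate kinase gene Pklr, at 10.7%, 8.84%, 38.0% and 34.4%. Kcnn4, a calcium-activated potassium channel gene, was not called, at 6.73%, 7.44%, 7.34% and 7.68%, nor was the region of 89 CpGs at Cacng7, between 6.68% and 8.83%. Of 9 regions at genes of granules and exocytosis 4 rose in eYFP- and 5 in eYFP+ cells. Rab27a and Rab3b, GTPases of secretory granules, went from 20.8% and 18.8% to 50.8% and 48.8% and from 7.34% and 10.6% to 35.3% and 29.97%. The calcium sensor gene Syt16 went from 17.2% and 10.2% to 45.2% and 36.4%. Unc13a, which primes vesicles, and Doc2b were not called, at 6.16% to 10.4% and 4.46% to 6.05%.

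Of 4 regions at receptor genes 3 rose in both subtypes. These were the glutamate receptor gene Gria2, at 20.2%, 26.7%, 49.3% and 47.1%, the VIP receptor gene Vipr1, where 42 CpGs went from 5.98% and 5.60% to 24.6% and 19.4% while every library kept an HMR, and the muscarinic receptor gene Chrm1, where 18 CpGs went from 27.3% and 19.6% to 42.0% and 40.7%. The single region of the list of insulin, IGF and prolactin signalling, in the imprinted adaptor gene Grb10, went from 21.96% and 28.8% to 57.9% and 55.5%. That of the list of cell cycle and survival, in the proapoptotic gene Bcl2l11, went from 5.62% and 7.88% to 23.9% and 19.2%. Of 5 Wnt pathway regions 1 rose in both subtypes, in Apc2, from 7.68% and 10.1% to 24.1% and 20.9%. Of 5 regions of glucose sensing and metabolism, 1 rose in eYFP- cells (Slc2a1, 8 CpGs) and 1 in eYFP+ cells, in the clock gene Clock, from 15.0% to 25%.

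**Figure D4:**
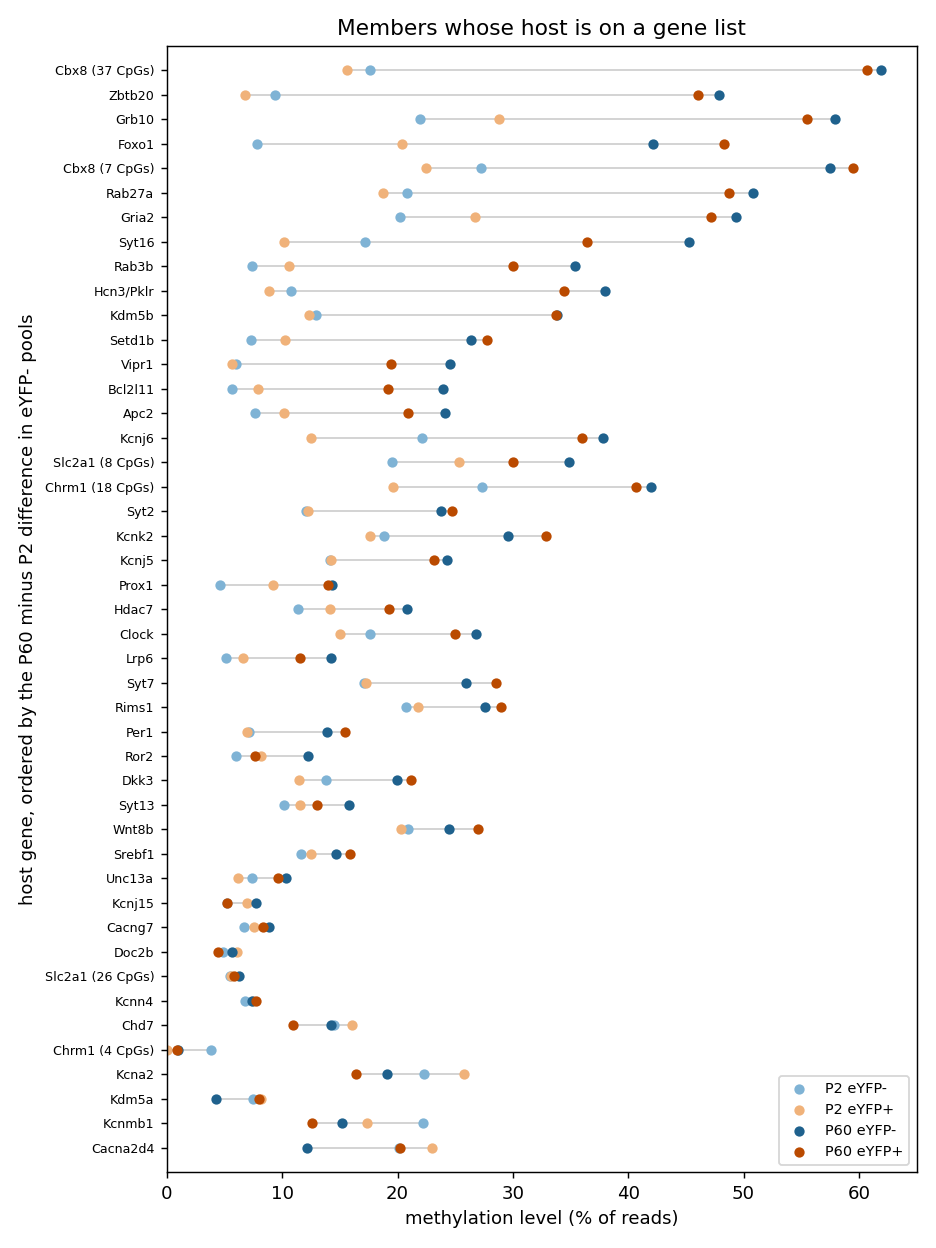
Methylation level (x, percent of reads) of 45 of the 51 3′ UTR HMRs whose host is on a gene list, with a point for each of the 4 pools; hosts are ordered by the P60 minus P2 difference in eYFP- cells, and the number of CpGs is given where a host has more than 1 region. The points of both P60 pools lie to the right of both P2 pools in the upper rows, from 17.6% and 15.6% to 61.9% and 60.7% at Cbx8, and mix in the lower ones.

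The libraries gave the one comparison of stages with replicates. They were counted as units, although P60 libraries of the same subtype and sex may share DNA. At P2 a library had an HMR at 61.2% ± 2.80 (SD, n = 4) of the 3′ UTR HMRs, with a range from 58.1% to 64.4%, and at P60 at 40.2% ± 4.68 (SD, n = 8), from 34.1% to 45.8%. The groups did not overlap, and the difference of -21.01 points had p = 0.00202 in a two-sided exact permutation test, the smallest its 495 regroupings can give. The regions came from pools of these libraries, more of them from P2 than from P60 pools alone. How far this choice of regions set the higher share at P2 was not tested, and the permutation test does not cover it. With the mean of both subtypes for each replicate number as the unit, a choice made after the data were seen, the 2 P2 and 4 P60 sets gave an exact permutation p of 0.0667, the smallest of 15 regroupings. It was -20.6 points in eYFP- and -21.5 points in eYFP+ libraries, each with the smallest exact permutation p of 15 regroupings, 0.0667. Intronic HMRs went from 60.9% to 37.2% and intergenic ones from 62.9% to 43.5%.

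Within a library the share of 3′ UTR HMRs with an HMR call exceeded that of intronic HMRs by 0.164 to 0.408 points at P2 and by 1.06 to 4.94 points at P60, a difference of 2.71 points between stages (p = 0.00606, two-sided exact permutation test over 12 libraries). With replicate sets as the unit the exact permutation p was 0.1333. The smallest that 2 against 4 sets can give is 0.0667, so this test cannot decide whether the difference holds over sets. The P60 libraries of replicates 1 and 3, which are those labelled female, had fewer HMRs (38064 to 44650) than those of replicates 2 and 4 (46287 to 49975), and without the former, a choice made after the data were seen, the difference was 1.46 points (exact permutation p = 0.0286, the smallest of 70 regroupings) and that in the share of 3′ UTR HMRs -17.1 points (exact permutation p = 0.0286). Against intergenic HMRs the difference went the other way, by -1.65 points (exact permutation p = 0.0424 over libraries and 0.2 over replicate sets). An HMR was found in all 12 libraries at 281 regions (24.98%, against 21.05% of intronic HMRs). It was found in all P2 and no P60 library at 81, in all P60 and no P2 library at 0, and in no single library at 194. For these other counts no share over all HMRs is given here. P60 libraries had fewer HMRs of any kind (38064 to 49975) than P2 libraries (57122 to 60968).

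**Figure D5:**
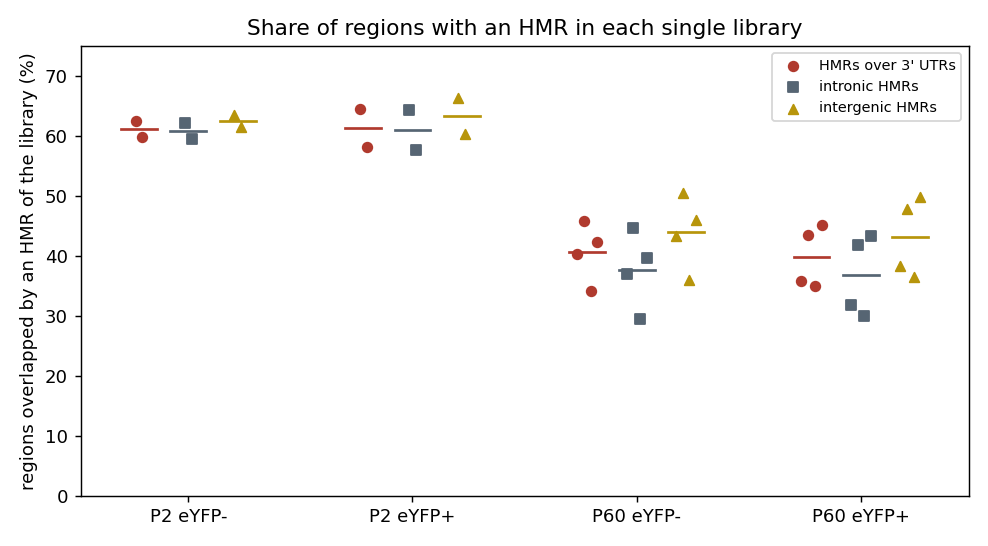
Share of regions overlapped by an HMR of a single library (y, percent) for 3′ UTR, intronic and intergenic HMRs in the 4 groups, with a point for each library and a line at the group mean. The 4 P2 libraries lie between 58.1% and 64.4% for 3′ UTR HMRs and the 8 P60 libraries between 34.1% and 45.8%.

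Differences between the subtypes were few at both stages. At P2, 13 regions were higher in eYFP+ cells (1.16%, background 0.789%) and 8 lower (0.711%, background 0.423%), and at P60, 8 were higher (0.711%, background 0.32%) and 2 lower (0.178%, background 0.345%). The median difference over the 1125 regions was 0.563 points at P2 and -0.268 points at P60. An unadjusted p under 0.05 in Fisher's exact test was reached by 187 and 141. No share over all HMRs is given here for these 2 counts, so they cannot be read as a trait of 3′ UTR HMRs. The share of regions with an HMR differed between the subtypes by 0.133 points at P2, where 2 against 2 libraries cannot give an exact permutation p under 0.333, and by -0.778 points at P60 (two-sided exact permutation p = 0.886). No region had an HMR in every P60 library of either subtype and in none of the other.

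The regions with the largest differences at P2 had between 6 and 9 CpGs. Mark1, a kinase that acts on microtubule-associated proteins, had levels of 10.2% (6.49 to 15.8), 32.9% (26.3 to 40.3), 22.6% (18.3 to 27.6) and 34.0% (29.5 to 38.9), with all 6 CpGs higher in eYFP+ cells at both stages. Its adjusted p by Fisher's exact test was 0.000318 at P2 and 0.0517 at P60, and both P2 eYFP- libraries but no other library had an HMR there. Sec14l5, a lipid-binding protein gene, had 15.95%, 35.3%, 26.8% and 28.7%, and Samd11 had 18.1%, 37.3%, 47.8% and 48.6%. With Zbtb47 these were the 4 largest differences toward higher levels in eYFP+ cells. In the other direction were Gcnt3, a glycosyltransferase of mucins, at 28.7%, 10.8%, 45.8% and 39.5%, the hydrolase gene Abhd2 at 34.5%, 17.1%, 54.4% and 56.5%, Tmem44 at 32.3%, 18.1%, 47.3% and 44.0%, and Stk11ip, whose product binds the kinase LKB1, at 41.8%, 28.1%, 73.7% and 73.8%. From P2 to P60 the regions of Mark1 and Sec14l5 were called higher in eYFP- cells only, and the others in both subtypes.

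At P60 the largest difference was in Ap1ar, which encodes a regulator of the clathrin adaptor AP-1. Its region (chr3:127601667-127602144, 10 CpGs, proximal in the 3′ UTR) was at 17.1% (12.9 to 22.3), 26.9% (22.3 to 32.0), 21.6% (18.4 to 25.3) and 43.4% (39.6 to 47.3), with an adjusted p by Fisher's exact test of 1.09e-11 at P60 and 0.129 at P2. All 10 CpGs were higher in eYFP+ cells at P60, and 2 of 4 eYFP- and 0 of 4 eYFP+ libraries had an HMR. The melanocortin receptor gene Mc3r had 28.9%, 38.7%, 20.5% and 37.4%, and the small region of Nfix, a transcription factor of the nuclear factor I family, had 17.1%, 17.9%, 31.8% and 47.6%. The 2 regions lower in eYFP+ cells were in the phospholipid transporter gene Atp9b, at 11.3%, 9.94%, 43.3% and 32.5%, and in the corepressor gene Cbfa2t2, at 16.6%, 15.5%, 41.4% and 30.7%. Both rose from P2 to P60 in both subtypes.

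The regions of E2f7 and Fer were called at both stages in the same direction, and E2f7 is singled out for this after its values were seen. E2f7, a repressor of the E2F family that acts in the cell cycle, had at chr10:110620818-110621012 levels of 20.3% (15.7 to 25.9), 38.9% (32.5 to 45.6), 16.5% (13.5 to 20.1) and 29.5% (25.8 to 33.5). All 9 CpGs were higher in eYFP+ cells at each stage, and an HMR was found in 2 of 2 P2 and 2 of 4 P60 eYFP- libraries and in no eYFP+ library. The adjusted p by Fisher's exact test was 0.00447 at P2 and 0.000372 at P60. Fer, a tyrosine kinase gene, had 16.1% (12.8 to 20.2), 29.4% (24.8 to 34.5), 25.1% (21.7 to 28.9) and 38.3% (34.4 to 42.3), with 12 of 13 CpGs higher in eYFP+ cells at each stage and an HMR in 3 of 4 P60 eYFP- libraries and 1 of 4 eYFP+ libraries. Its own promoter was between 82.9% and 89.1% methylated. The pools of the stages share no library. Of the 21 regions called at P2, 14 had the same sign at P60, as did 10 of the 10 called at P60 at P2. The same shares over all HMRs are not given here, so these counts cannot be read as a trait of 3′ UTR HMRs. Across all 1125 regions the subtype differences of the stages had a correlation of 0.136, against 0.142 across all 81983 HMRs. When the P60 reads were scaled down to the P2 depth, 1 of the 10 regions called at P60 was called. The adjusted p of E2f7 and Fer at P60 by Fisher's exact test became 0.420 and 0.136. Over all HMRs the calls at P60 went from 262 higher and 283 lower in eYFP+ cells to 25 and 10.

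A test of whether the change from P2 to P60 differed between the subtypes, added after the data were seen, called 5 regions with the higher change in eYFP+ cells (0.444%, background 0.217%) and 4 with the lower (0.356%, background 0.304%). They included Zbtb47 and Tbc1d16, which were called between the subtypes at P2 only, and Dcbld1.

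The letters CAGGGGGC, on either strand, stood within the central 200 bp of 50 of the 1125 regions (4.44%, 95% Wilson interval 3.39 to 5.81). The share was 1.35% (1.221 to 1.502) in intronic, 1.74% in intergenic, 2.22% in start-proximal and 3.42% (2.59 to 4.49) in coding exon HMRs. It rises with the G and C content, and within windows of under 45%, 45 to 55% and over 55% G and C it was 1.11%, 3.82% and 8.52% in 3′ UTR HMRs and 0.388%, 1.26% and 4.19% in intronic ones. Of the 51 sites 26 were preceded by cca and then c or g, and 27 were followed by g, which makes a CpG at the last letter. The letters stood in 5.78% (4.18 to 7.93) of the 606 regions called in neither subtype. They stood in 9 (2.83%, 1.496 to 5.29) of the 318 that rose in both, and the 95% Wilson intervals overlap. Of the 50 regions 12 (24.0%) had an HMR in all 12 libraries, against 24.98% of all 3′ UTR HMRs. Among those that rose, named after their values were seen, were Cbx8, Scarf1 (from 8.86% and 17.5% to 54.2% and 57.2%), Vmp1 and the helicase gene Upf1. Of the 5 other motifs searched, the FOXA letters TGTTTAC stood in 5.87% of 3′ UTR and 7.13% of intronic HMRs, the NKX6-1 letters TTAATTA in 3.11% and 5.90%, the GATA letters AGATAAG in 3.38% and 3.64%, the NEUROD1 letters CAGATGG in 8.44% and 8.43%, and the MAF letters TGCTGAC in 5.42% and 5.72%. A match of letters does not show that a factor binds.

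A region of Lars2, the mitochondrial leucyl-tRNA synthetase gene, stood apart in depth. Its 18 CpGs (chr9:123290872-123291238) had between 1223 and 2944 reads per CpG, 48.5 to 64.5 times the mean of the pools, and levels of 24.7%, 28.8%, 22.96% and 22.02%. Reads of other copies of a sequence can be mapped to such a region, and its levels are given as uncertain.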

How the data were processed

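Tagmentation-based bisulfite libraries were trimmed (Trim Galore 0.6.6 with cutadapt 1.16), mapped and summarised by the authors, with SAMtools 1.5 also in the submitters' processing notes; the versions of the mapper and of the HMR caller are not given in the sources used here. The authors deposited, for each stage, counts of methylated and unmethylated reads per CpG in the eYFP- and eYFP+ pools, which are raw and not normalised, and HMR positions for each pool and each of the 12 libraries (genome build mm39). Their score columns and lists of differentially methylated regions hold the authors' own comparisons and were not used. The pool called B1 was taken as eYFP- and B2 as eYFP+ from the number of lines in those lists beside the text of the study, and this was checked on the labelled libraries, where HMRs of the P2 eYFP- pool alone were found in 24.0% and 27.2% of cases in eYFP- and in 4.55% and 6.00% in eYFP+ libraries.

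HMRs of the 4 pools were merged and counts summed over the CpGs of each region. Genes came from GENCODE vM39. A promoter was the 500 bp on either side of a start. Two-sided Fisher's exact tests on the summed counts were adjusted by Benjamini-Hochberg over all 81983 regions, and the change in stage was compared between subtypes by Woolf's test of log odds ratios with 0.5 added to each count. The test steps were tested on simulated data. Shares of regions with a library HMR were compared by two-sided exact permutation tests. Python 3.11.15, NumPy 2.4.6, SciPy 1.17.1, pandas 2.3.3 and matplotlib 3.10.9 were used.

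Members and gene lists were chosen with earlier results of these data known. Regions with at least 100 reads in each pool were named if among the 8 largest rises or falls called in both subtypes, the 4 largest subtype differences in a direction at a stage, the 6 lowest mean levels, or hosted by a listed gene. At P60 the deviations of same-numbered libraries from their group means had correlations of 0.140 to 0.312, and at P2 of 0.0147. Same-numbered P60 libraries also share their labelled sex, so these correlations do not show that replicate numbers are pairs. The replicate sets averaged same-numbered libraries at both stages all the same. Of 254 X-linked HMRs of all P60 male and no P60 female libraries, the P2 eYFP- library labelled female had 92.5% and that labelled male 13.4%, so these labels go against the X chromosome. No groups were compared by sex, but leaving out P60 replicates 1 and 3 leaves the P60 libraries labelled male. Some genes on the lists are not reported here by name.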

Additional observations from a re-analysis of the deposited data

Results flagged for a closer look

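The change from P2 to P60 differed between the subtypes at 9 regions by Woolf's test over all HMRs, a test added after the data were seen and on pools without replicates. The test is asymptotic and not exact, and its adjusted p-values lay between 0.00408 and 0.0492. The difference is given as the change in eYFP+ minus the change in eYFP- cells. It was -26.55 points at Acyp2 (14.05%, 28.7%, 54.1% and 42.1%), -26.36 at Dcbld1 (21.4%, 37.6%, 32.5% and 22.3%), -18.1 at Tbc1d16 and -17.45 at Zbtb47. In these 4 regions the P2 level was higher in eYFP+ cells. It was 18.67 at Plekha5 (32.8%, 22.3%, 46.8% and 55.02%), 16.29 at Adam11 (35.2%, 22.3%, 21.5% and 24.9%), 15.47 at Iffo2 (34.9%, 26.7%, 34.4% and 41.7%), 13.11 at the RNA-binding protein gene Celf5 (38.6%, 25.04%, 34.2% and 33.7%) and 11 at the focal adhesion gene Tns1 (25.2%, 21.2%, 22.4% and 29.4%). In these 5 the P2 level was lower in eYFP+ cells. The difference in points equals the subtype difference at P60 minus that at P2. The order of the subtypes at P2 in these 9 regions was therefore partly set by their choice.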

How the results depend on the processing

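Counts of calls are given as higher and then lower. With no minimum difference 543 regions rose and 87 fell in eYFP- cells (48.3% and 7.73%, against 43.2% and 7.84% of all HMRs), so the share that fell was no longer above that of all HMRs. In eYFP+ cells 497 rose and 124 fell (all HMRs 40.7% and 9.91%), and 21 and 13 differed between subtypes at P2 (all HMRs 1.31% and 0.74%) and 18 and 9 at P60 (0.866% and 1.06%). At 20 points or more the counts were 191 and 7 in eYFP- (all HMRs 13.2% and 0.526%) and 182 and 9 in eYFP+ cells (12.8% and 0.707%), 1 and 0 between subtypes at P2 (0.0964% and 0.0659%) and at P60 (0.0281% and 0.0159%), and 0 and 2 for the change by subtype (0.089% and 0.123%). With the P60 reads scaled to the P2 depth, 1 and 0 regions differed between subtypes at P60 (all HMRs 0.0305% and 0.0122%). The calls at Cbfa2t2, Mc3r, Nfix, E2f7, Fer and Atp9b at P60 and of the rises of Samd11, Clock and Acyp2 in eYFP+ cells were lost. Among the 575 regions that were HMRs in all 4 pools, the counts were 73 and 8 in eYFP- and 61 and 17 in eYFP+ cells. Of all 48616 such HMRs, 11.6% and 1.08% were called in eYFP- and 10.2% and 1.59% in eYFP+ cells. Between subtypes the counts were 2 and 0 at P2 (such HMRs 0.381% and 0.0926%) and 0 and 0 at P60 (0.0617% and 0.0658%). For the change by subtype they were 1 and 0 (0.0967% and 0.183%). More than 5 kb from a start, 3 regions had the higher change in eYFP+ cells (0.323%, against 0.217% of all HMRs). The cause of these changes was not tested beyond the smaller sets and stricter limits themselves. The share of regions with a library HMR differed between the stages by -22.04 to -19.94 points when single libraries were left out (exact permutation p 0.00303 to 0.006061), and its excess over intronic HMRs by 2.438 to 2.992 points. With replicate sets as the unit, the same differences of -21.01 and 2.712 points had exact permutation p of 0.06667 and 0.1333, and 2 against 4 sets cannot reach the threshold. Between the subtypes it had no stable sign. Leaving out single libraries gave -3.022 to 3.289 points at P2 and -2.933 to 0.9481 at P60, regions over 5 kb from a start gave -0.4844 at P2, and at P60 the libraries of replicates 3 and 4, which share a name prefix, gave 1.822 and those of replicates 1 and 2 gave -3.378. With the replicate block the P60 difference of -0.778 points had an exact permutation p of 0.75. The read pools could not be split into replicates, and no paired test of levels was possible.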
